A study of Mus musculus with 16 samples.

Results

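HSC-like cells were selected from single-cell RNA sequencing of lineage-depleted mouse bone marrow by a gate on marker transcripts. A cell entered the gate when it carried at least 1 UMI (a counted transcript molecule) of at least 2 of *Hlf*, *Mecom*, *Procr*, *Mllt3* and *Gcnt2*. It also had fewer than 5 UMIs each of *Mpo*, *Pf4* and *Car1*, and 0 of *Dntt*. The cells considered had 750 or more detected genes and no more than 10% mitochondrial UMIs. Of these 94917 cells, 2882 (3.04%) passed the gate. These 9 genes chose the cells, so their levels are a description of the gate and not a result.

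All mice were C57BL/6 and, per the labels, 6 to 12 weeks old. WT mice were Tet2fl/fl without Cre, and *Tet2*-KO mice lost *Tet2* through Vav-Cre, which acts across the hematopoietic system, so an effect of Cre and an effect of *Tet2* loss cannot be told apart. Both genotypes were injected intraperitoneally with vehicle or with 500 ng of recombinant IL1β per mouse and day for 5 weeks. Each of the 4 groups held 4 mice in 2 libraries, and each library pooled 2 mice of 1 group that were told apart by hashtag antibodies.

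Hematopoietic stem cells (HSCs) are rare, mostly quiescent cells that sustain all blood lineages. IL1β is an inflammatory cytokine that signals through the receptor IL1R1 and the adaptor MyD88 to the transcription factor NF-κB, which switches on inflammatory genes together with its own inhibitors. TET2 oxidizes methylated cytosine in DNA, and its loss in blood stem cells is a common lesion of clonal hematopoiesis.

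The gate held 549 WT vehicle cells, 691 WT IL1β cells, 812 *Tet2*-KO vehicle cells and 830 *Tet2*-KO IL1β cells. Hashtags assigned 2162 of them to 1 mouse, 617 carried no clear hashtag and 103 carried both. Results per mouse rest on the 2162 assigned cells, 16 to 282 per mouse, with 51129 to 1064501 UMIs summed per mouse. The median gated cell had 2878 UMIs against 6071 in the other cells, and any pair of libraries shared at most 57 cell barcodes.

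*Hlf*, a transcription factor of HSCs, was read in 84.0% of the gated cells and *Gcnt2*, a glycosyltransferase, in 71.6%. *Mecom* was read in 35.5%, *Mllt3* in 34.7% and *Procr*, the surface protein EPCR, in 12.5%. In cells outside the gate *Mllt3* was read in 21.6% and *Hlf* in 7.29%. Marker make-up by group was read over all gated cells of a group together, not per mouse, and was not tested. *Procr* was read in 6.66% of WT IL1β gated cells, against 13.48% (WT vehicle), 16.38% (*Tet2*-KO vehicle) and 13.01% (*Tet2*-KO IL1β). *Mllt3* was read in 41.53%, against 30.24%, 30.79% and 35.78% in the same order. Whether marker make-up moved the WT response to IL1β was not tested. The pair *Hlf* and *Gcnt2* was present in 58.3% of the gated cells, the most frequent pair, counting cells that also carried other markers. Exactly 2 markers were read in 1983 cells, 3 in 708, and 4 or 5 in 191. Just inside and outside the *Mpo* limit, 127 gated cells had 4 *Mpo* UMIs and 104 cells with at least 2 markers were left out at 5.

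A list of HSC genes that the gate did not use served as a check of the label. Its summed level was 21.2 UMIs per 10000 in cells with 1 marker, which were just outside the gate, 39.6 in gated cells with 2 markers, 46.0 with 3 and 53.5 with 4 or 5. Of the cells with 1 marker, 44.8% were rich in marker genes of a mature lineage, against 9.38% of those with 2, and transcripts of those lineages lower a level per 10000 UMIs. The median cell carried 7 UMIs of the HSC list with 1 marker and 12 with 2, at median totals of 3229 and 2847 UMIs. The gate was not pure. Of the gated cells, 245 (8.50%) carried at least 20 UMIs of a list of marker genes of a mature lineage. They held 16.4% of the gated UMIs, 92.0% of the granulocyte-list UMIs and 50.6% of the erythroid-list UMIs. Of these 245 cells, 52 carried both hashtags and so did not enter values per mouse. The median of the 245 was 5931 UMIs, against 2766 in the other gated cells. The share of cells rich in such markers was 12.9% in the WT IL1β group. There it was uneven, at 11 of 26 assigned gated cells in mouse 4. Mice 1, 2 and 3 had 25 of 207, 4 of 31 and 16 of 174. Each main count below was therefore also computed without the cells rich in such markers, an alternative chosen after the data were seen.

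Sex was read from *Xist* and Y-linked transcripts. The 2 *Tet2*-KO groups each had a female and a male library, and a WT vehicle and a WT IL1β library each mixed the sexes. In WT IL1β mouse 3, called male, 21.5% of the assigned cells carried *Xist*, so values per mouse in that library may mix both mice. *Xist* and Y-linked transcripts were read in the same cell in 11.45% of mouse 3's cells and 4.36% of mouse 4's. In gated cells this was 9.2% and 15.38%. Wrong hashtag calls, droplets with cells of both mice and free RNA may each play a part, and which did was not tested. In the other mixed library *Xist* was read in 96.6% of the cells assigned to WT vehicle mouse 1 and in 10.6% of those assigned to mouse 2. A plain ratio of the 2 hashtag counts, tried as an alternative, assigned cells very differently in some libraries. It gave WT vehicle mouse 1 only 76 cells in place of 4159 and *Tet2*-KO vehicle mouse 1 only 62 in place of 4214, and left 14 mice with at least 10 gated cells. *Tet2* itself cannot check the genotype here, since the counts cover the whole gene and do not show the floxed part. *Tet2* (chromosome 3, 133463679 to 133545139, GRCm38) lay at 36.9, 39.7, 38.5 and 69.3 CPM (counts scaled to the summed depth of the mouse) in the WT vehicle mice and at 57.9, 51.7, 76.2 and 58.6 CPM in the *Tet2*-KO vehicle mice.

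The first question was whether IL1β or *Tet2* loss changed how many marrow cells passed the gate. In WT mice the share was 3.59% ± 2.07 (SD, n = 4) with vehicle and 2.40% ± 1.02 with IL1β, a difference that did not pass the test (exact two-sided permutation p = 0.371). In *Tet2*-KO mice it was 3.92% ± 0.536 with vehicle and 3.96% ± 1.75 with IL1β (exact permutation p = 1.0). *Tet2*-KO minus WT was 0.324 percentage points with vehicle (exact permutation p = 0.8) and 1.56 with IL1β (exact permutation p = 0.171). Single mice moved these values, the WT difference from -1.19 to -0.33 percentage points without WT vehicle mouse 3, and the genotype difference with IL1β to 0.786 without *Tet2*-KO IL1β mouse 2. The genotype difference with IL1β was 1.09 with cells thinned at random to 4000 UMIs each and 0.699 with at least 3 markers. Each of these gave an exact permutation p = 0.0571. The difference was 1.5 with the ratio of hashtag counts (exact permutation p = 0.0857). With cells thinned to 2000 UMIs it was 1.13 (exact permutation p = 0.171). With 4 mice a group the smallest p this test can give is 0.0286. *Hlf*, *Mecom* and the other markers set these shares, so a change in marker level and a change in cell number cannot be told apart.

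**Figure D1:**
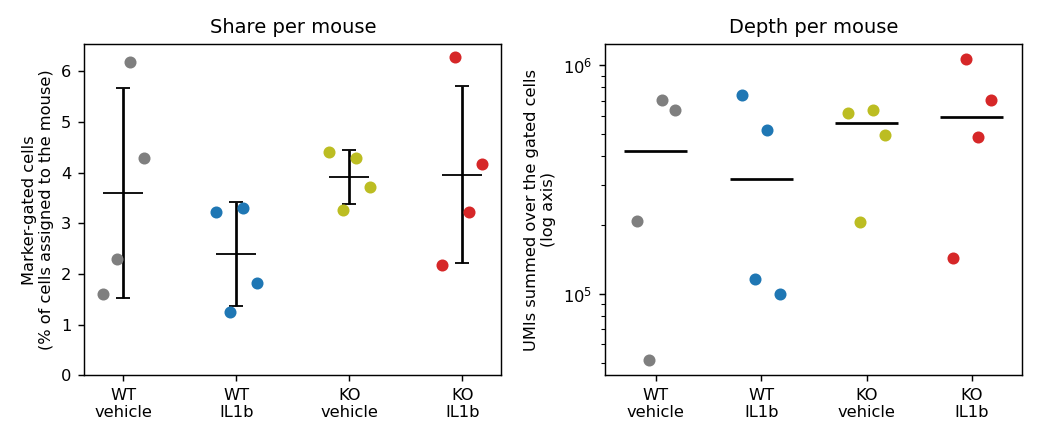
Left, marker-gated cells as a percent of the cells assigned to each mouse, with mean ± SD. Right, UMIs summed over the gated cells of each mouse on a log axis, with the median as a line. The 4 groups overlap in share, and depth ranges from 51129 to 1064501 UMIs.

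UMIs were then summed over the gated cells of each mouse and compared by the quasi-likelihood test of edgeR. P-values were adjusted by Benjamini and Hochberg's method over the 7640 genes fitted, and the 7632 outside the gate rule were counted. IL1β changed 353 genes in WT gated cells (4.63% of those tested), 134 higher (1.76%) and 219 lower (2.87%). In *Tet2*-KO gated cells it changed 792 (10.4%), 315 higher (4.13%) and 477 lower (6.25%). Of these, 236 were called in both genotypes, 82 higher in both and 154 lower in both, and all moved in the same direction. They made up 66.9% of the WT calls and 29.8% of the *Tet2*-KO calls.

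These counts depended on single mice and on the cells kept. The WT count fell to 201 without WT vehicle mouse 1, 147 without mouse 3, 132 without mouse 4 and 94 without WT IL1β mouse 3. The *Tet2*-KO count was 424 without *Tet2*-KO vehicle mouse 3 and 426 without mouse 4. Without the cells rich in markers of other lineages the counts were 418 in WT and 766 in *Tet2*-KO. They were 16 and 268 in cells with at least 3 markers, with 13 mice and 5216 genes tested, and 93 and 464 with the libraries in place of the mice as replicates. Thinning to 4000 UMIs gave 37 and 264, but only 795 of the 2882 gated cells reached that depth, which left 14 mice and 2591 genes tested in place of 7632.

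**Figure D2:**
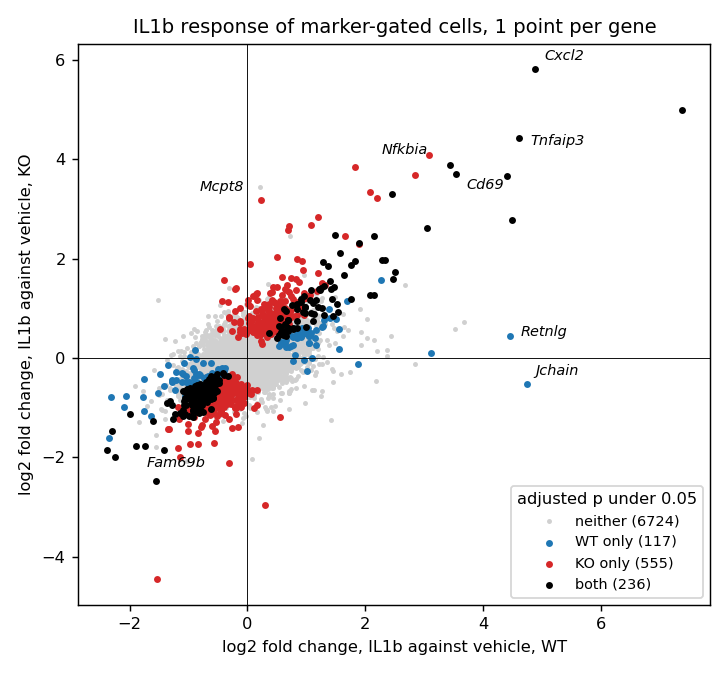
Each point is a gene, with its log2 fold change of IL1β against vehicle in WT gated cells on the x axis and in *Tet2*-KO gated cells on the y axis. Colours mark an adjusted p under 0.05 in neither, 1 or both genotypes, and the 236 genes called in both lie in the upper right or lower left.

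The genes that rose in both genotypes were led by the NF-κB system and its inhibitors. *Tnfaip3* (chromosome 10, 19000910 to 19015657), which encodes A20, an enzyme that shuts NF-κB signalling down, was at 21.1, 0, 4.4 and 6.6 CPM in the WT vehicle mice and at 84, 202, 285 and 203 CPM in the WT IL1β mice. It was at 15.8, 10.4, 10.2 and 13 CPM in the *Tet2*-KO vehicle mice and at 315, 138, 401 and 294 CPM in the *Tet2*-KO IL1β mice. Every IL1β mouse lay above every vehicle mouse, a separation that 10.5% of all genes showed in WT and 17.2% in *Tet2*-KO in either direction. *Tnfaip3* rose by 4.62 ± 0.54 on the log2 scale (SE, adjusted p = 6.1e-05) in WT and by 4.43 ± 0.42 (adjusted p = 1e-06) in *Tet2*-KO.

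*Nfkbia* (chromosome 12, 55489410 to 55492647) encodes IκBα, which holds NF-κB in the cytoplasm. It was at 79.1, 79.3, 60.7 and 56.1 CPM in WT vehicle mice and at 103, 993, 1020 and 756 CPM in WT IL1β mice. WT IL1β mouse 1, which had the most gated cells of its group, stood near the vehicle mice, while the other 3 lay far above them. In *Tet2*-KO mice *Nfkbia* went from 59.6, 56.9, 69.4 and 60.7 CPM with vehicle to 938, 390, 1406 and 995 CPM with IL1β. The fold was 10.9 in WT (log2 3.44 ± 0.50) and 14.9 in *Tet2*-KO (log2 3.89 ± 0.46), both past the threshold.

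*Cxcl2* (chromosome 5, 90903871 to 90905938), a chemokine that draws neutrophils, was at 21.1, 0, 1.5 and 0 CPM in WT vehicle mice and at 58.7, 184, 136 and 107 CPM in WT IL1β mice. The *Tet2*-KO mice had 7, 15.5, 0 and 0 CPM with vehicle and at 192, 29, 467 and 269 CPM with IL1β. The groups did not overlap in either genotype. The fitted log2 changes were 4.88 ± 1.11 in WT and 5.81 ± 0.85 in *Tet2*-KO, with most vehicle values near 0.

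The stretch before the start of *Cxcl2* and of *Nfkbia* is shown because both carry the letters of an NF-κB site. The pattern searched was GGG, any 3 letters and then TTCC, on either strand, in the 250 bases before each start in RefSeq (GRCm38.p6), and capitals mark the matches, which overlap where a stretch reads on both strands. Among the 12 genes named as higher in both genotypes, 10 had an entry and 4 of these had a match (*Cxcl2*, *Tnfaip3*, *Nfkbia* and *Neurl3*). The RefSeq starts can differ from the gene positions given above. The stretch of *Tnfaip3* (19015411 to 19015660, minus strand) lies almost wholly within the gene as placed above. That of *Cxcl2* runs past the gene start given above. Of the 12 named as lower, 8 had an entry and 0 had a match. Of 32851 promoters in the table, 4.65% had one. A match is a description of the letters and not of binding.
Cxcl2, chr5:90903649-90903898, plus strand: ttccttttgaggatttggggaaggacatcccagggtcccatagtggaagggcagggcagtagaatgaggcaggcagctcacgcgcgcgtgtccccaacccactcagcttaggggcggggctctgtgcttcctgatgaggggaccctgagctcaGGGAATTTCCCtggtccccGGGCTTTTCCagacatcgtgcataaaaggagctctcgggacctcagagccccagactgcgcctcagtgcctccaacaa
Nfkbia, chr12:55492648-55492897, minus strand: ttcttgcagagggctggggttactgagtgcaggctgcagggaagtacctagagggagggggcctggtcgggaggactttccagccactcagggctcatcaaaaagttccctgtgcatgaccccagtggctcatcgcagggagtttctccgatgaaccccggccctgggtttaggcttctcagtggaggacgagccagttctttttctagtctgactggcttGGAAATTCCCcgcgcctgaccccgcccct

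*Cd69* (chromosome 6, 129267325 to 129275436), an early activation antigen that holds leukocytes in tissue, was at 100, 59.5, 123 and 87.5 CPM in WT vehicle mice and at 351, 1812, 1365 and 1192 CPM in WT IL1β mice. With *Tet2* lost it went from 179, 186, 108 and 54.2 CPM to 2136, 532, 2300 and 1760 CPM. It rose 11.6-fold in WT and 13-fold in *Tet2*-KO. *Junb*, an AP-1 subunit, rose by 2.34 ± 0.40 in WT and 1.98 ± 0.36 in *Tet2*-KO on the log2 scale, although *Tet2*-KO vehicle mouse 1 was at 673 CPM against 145 to 259 in the others of its group.

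The remaining named genes that rose in both were *Nfkbiz*, an atypical IκB, *Tnip3*, an A20-binding protein, the phosphodiesterase *Pde4b*, *Neurl3*, the cyclin *Ccng2*, the immediate early gene *Ier5* and *Ndel1*. Their log2 changes ranged from 0.97 (*Ndel1*) to 3.04 (*Nfkbiz*) in WT and from 1.02 (*Ndel1*) to 3.30 (*Tnip3*) in *Tet2*-KO.

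**Figure D3:**
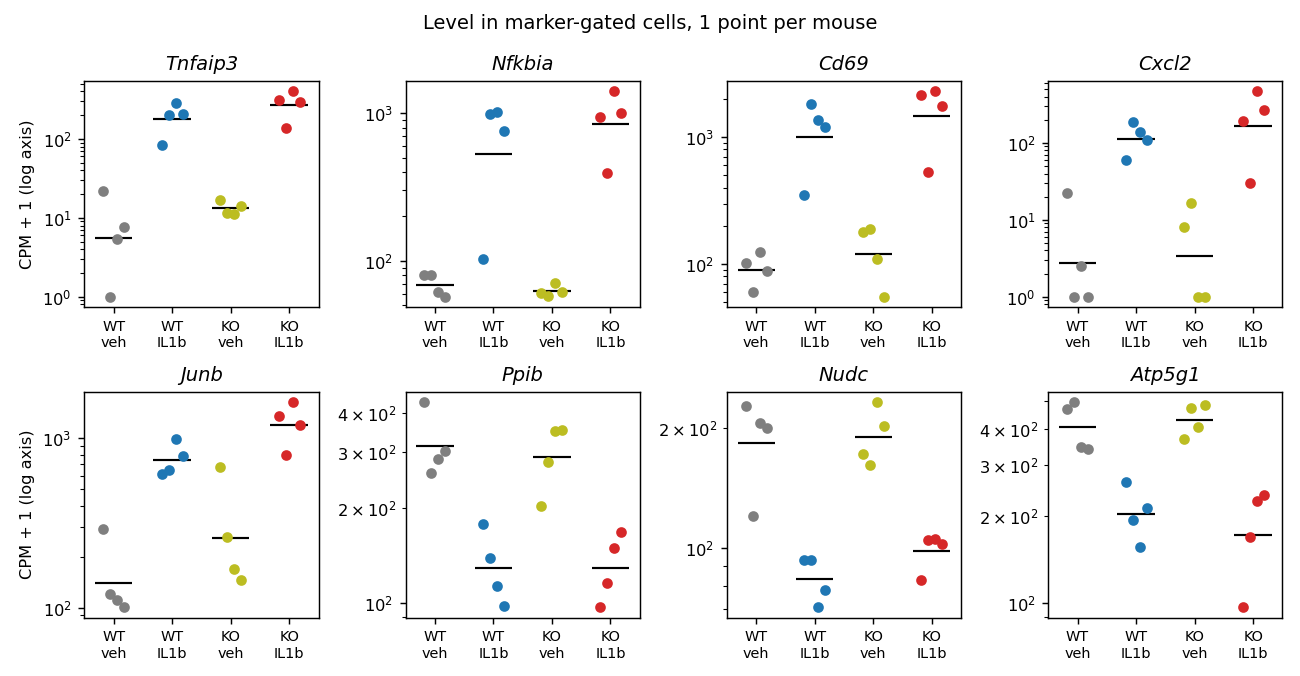
CPM + 1 in the gated cells of each mouse on log axes, with the geometric mean as a line. *Tnfaip3*, *Cd69* and *Cxcl2* lie higher in every IL1β mouse than in every vehicle mouse of the same genotype, and *Ppib* and *Atp5g1* lie lower.

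Of 16 tested genes of the list of NF-κB subunits and feedback, 4 rose in WT and 9 in *Tet2*-KO, where 1.76% and 4.13% of all genes were called higher, and 0 fell in either. The list's median log2 change was 1.14 in WT and 1.60 in *Tet2*-KO, against 0.011 and 0.004 over all genes tested. *Nfkb1*, the p105 subunit, rose by 0.78 ± 0.17 in WT and 0.58 ± 0.16 in *Tet2*-KO. *Birc3*, an inhibitor of apoptosis, rose by 2.69 ± 0.39 in *Tet2*-KO. Of 13 tested genes of the IL1 receptor and its signal, 0 changed in WT and 1 rose in *Tet2*-KO (*Tab2*, 0.99 ± 0.19). *Il1r1*, the receptor itself and named after its values were seen, changed by -0.10 ± 0.46 in WT and -0.21 ± 0.47 in *Tet2*-KO, neither past the threshold.

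Of the genes that fell in both genotypes, 12 were named. *Ppib*, a prolyl isomerase of the endoplasmic reticulum, was at 432, 258, 284 and 302 CPM in WT vehicle mice and at 177, 138, 112 and 96.9 CPM in WT IL1β mice. The *Tet2*-KO mice had 202, 279, 350 and 354 CPM with vehicle and at 95.8, 115, 148 and 166 CPM with IL1β. It was 2.34-fold lower with IL1β in WT and 2.19-fold lower in *Tet2*-KO, with no overlap. *Rpl29*, a ribosomal protein, was 2.07-fold lower in WT and 1.93-fold lower in *Tet2*-KO. *Atp5g1*, a subunit of the ATP synthase, was 1.91-fold and 2.27-fold lower.

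The other named genes that fell in both were *Fam69b*, *Eif6*, a factor of 60S subunit assembly, *Hsd17b10*, *Nudc*, the mitochondrial ribosomal gene *Mrps24*, *Grpel1*, a partner of the mitochondrial chaperone, *Dctpp1*, the spermidine synthase *Srm* and *Edf1*. Their log2 changes ranged from -1.90 (*Fam69b*) to -0.88 (*Edf1*) in WT and from -1.77 (*Fam69b*) to -0.89 (*Srm*) in *Tet2*-KO. *Grpel1* and *Srm* were the least stable in WT, losing the call in 16 and 10 of 28 alternatives.

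Of 28 tested genes of ribosome biogenesis, 5 fell in WT and 11 in *Tet2*-KO, 0 rose in either, and 23 and 17 did not pass the test. Over all genes 2.87% and 6.25% were called lower. The list's median log2 change was -0.46 in WT and -0.52 in *Tet2*-KO, against 0.011 and 0.004 over all genes. *Nhp2*, a protein of H/ACA particles, fell by 0.76 in WT and by 1.09 in *Tet2*-KO on the log2 scale. *Nop56*, of the C/D particles, fell by 0.64 and 0.72. *Fbl*, the methyltransferase fibrillarin, fell by 0.91 in WT, and its change of -0.39 in *Tet2*-KO did not pass the test.

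Of 17 tested G1 cyclins and inhibitors, 6 rose and 1 fell in WT, and 4 rose in *Tet2*-KO, where 1.76% and 4.13% of all genes were called higher. *Cdkn1a*, the inhibitor p21, rose by 2.09 ± 0.44 in WT and 1.28 ± 0.35 in *Tet2*-KO. *Cdkn1b*, the inhibitor p27, rose by 0.65 ± 0.18 and 0.53 ± 0.16. *Ccnd2*, a D cyclin, was at 369, 298, 366 and 376 CPM in WT vehicle mice and at 171, 175, 230 and 174 CPM in WT IL1β mice, a fall of 1.89-fold. Its change in *Tet2*-KO was -0.23 ± 0.15, not past the threshold. Of 27 G2M genes, 3 rose in WT and 1 in *Tet2*-KO, the latter near the share over all genes. The change was positive for 26 of the 27 in WT (median 0.546) and for 24 in *Tet2*-KO (median 0.455). The medians over all genes were 0.011 and 0.004. The summed G2M level was higher in every WT IL1β mouse than in every WT vehicle mouse, while the *Tet2*-KO groups overlapped. Of 30 S phase genes 0 changed in WT and 1 fell in *Tet2*-KO, which in *Tet2*-KO was near the share over all genes.

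Among 21 tested self-renewal factors, 3 rose and 1 fell in WT, and 9 rose and 1 fell in *Tet2*-KO. Over all genes the called shares were 1.76% higher and 2.87% lower in WT, and 4.13% and 6.25% in *Tet2*-KO. This list includes genes that the study named on these samples, so its direction is not independent evidence. *Ikzf2*, the factor Helios, rose by 0.97 ± 0.21 in WT and 1.04 ± 0.19 in *Tet2*-KO. *Gata2*, a factor that HSCs need, was at 301, 198, 219 and 223 CPM in WT vehicle mice and at 348, 294, 344 and 320 CPM in WT IL1β mice. The *Tet2*-KO mice had 179, 119, 200 and 226 CPM with vehicle and at 602, 338, 282 and 320 CPM with IL1β. *Gata2* rose 2-fold in *Tet2*-KO (adjusted p = 0.0026 by edgeR), and its change of 0.48 ± 0.21 in WT was not past the threshold. *Gata2* is also read in basophils and mast cells, and its highest value was in *Tet2*-KO IL1β mouse 1, where that list summed to 84.0 UMIs per 10000 against a group median of 5.91. Without the cells rich in other markers its change in *Tet2*-KO was 0.82 (adjusted p = 0.00067 by edgeR). *Erg*, an ETS factor, rose in *Tet2*-KO by 0.55 ± 0.16. *Mycn* was the member that fell, by 1.60 in WT and 1.26 in *Tet2*-KO on the log2 scale.

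Of 24 tested HSC genes outside the gate, 0 rose and 4 fell in WT, and 3 rose and 2 fell in *Tet2*-KO. Over all genes 2.87% fell in WT, and 4.13% rose and 6.25% fell in *Tet2*-KO, so the count that fell in *Tet2*-KO was near that share. *Ifitm3*, a membrane protein that blocks virus entry, fell by 0.87 in WT and 0.98 in *Tet2*-KO on the log2 scale. *Cd63* fell by 1.04 in WT.

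**Figure D4:**
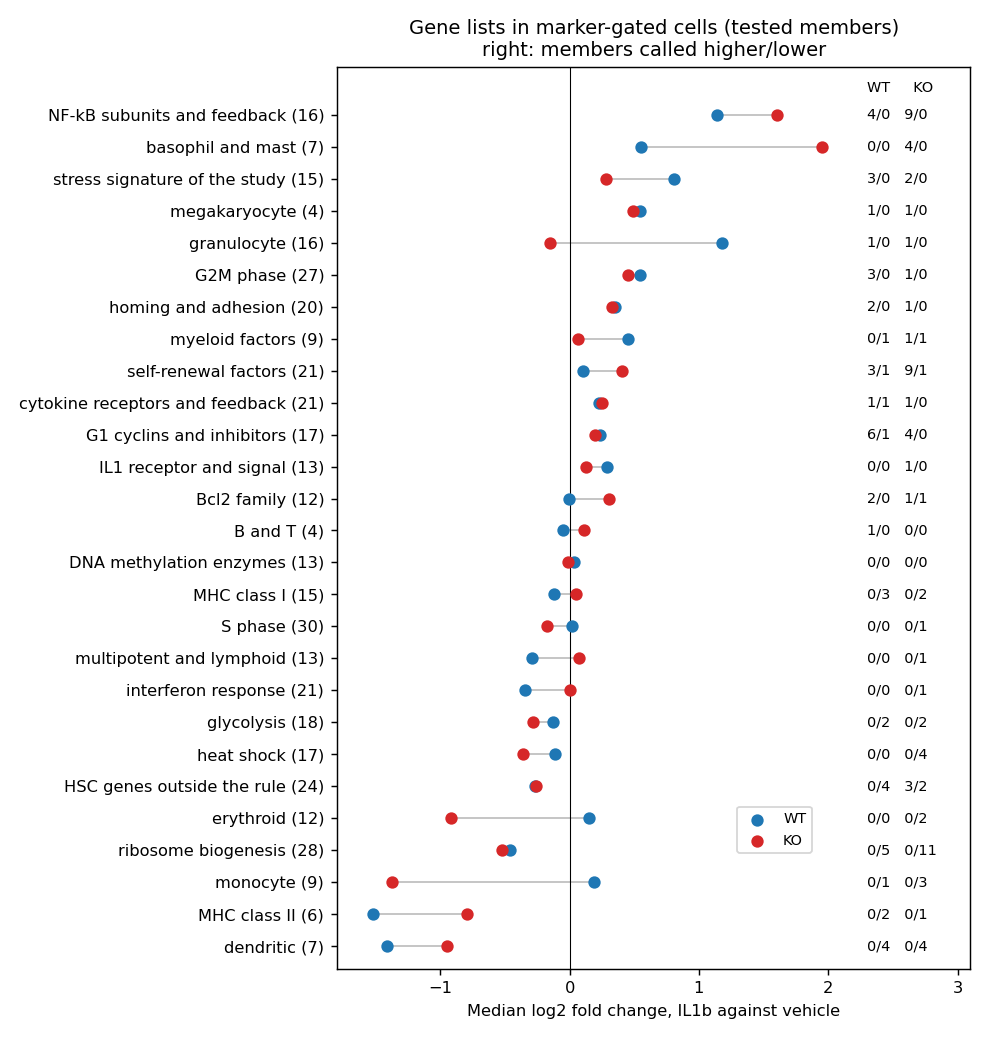
Median log2 fold change of IL1β against vehicle over the tested members of each gene list, in WT (blue) and *Tet2*-KO (red) gated cells, with the number of tested members in brackets. The columns at the right give members called higher and lower, 4 and 0 in WT and 9 and 0 in *Tet2*-KO for the NF-κB list, and 0 and 5, and 0 and 11, for ribosome biogenesis.

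Markers of other lineages moved with IL1β in the same sums. Fewer cells of a type and less RNA per cell cannot be told apart in them. Of 7 dendritic genes, 4 fell in each genotype, where 2.87% of all genes fell in WT and 6.25% in *Tet2*-KO. *Irf8*, a factor of monocytes and dendritic cells, fell by 1.41 in WT and by 1.84 in *Tet2*-KO on the log2 scale. *H2-Eb1*, an MHC class II chain, fell by 2.25 and by 2.00. Of 9 monocyte genes, 1 fell in WT and 3 in *Tet2*-KO. Without the cells rich in other markers the change of *Irf8* was -1.81 in *Tet2*-KO and -1.11 in WT, where it was no longer past the threshold (adjusted p = 0.055 by edgeR).

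Of 7 basophil and mast cell genes, 0 changed in WT and 4 rose in *Tet2*-KO, where 4.13% of all genes rose. *Mcpt8*, a basophil protease, was at 2553, 37.4, 87.6 and 41.9 CPM in the *Tet2*-KO IL1β mice, so mouse 1 alone stood apart. It rose by 3.17 ± 1.02 on the log2 scale there and by 1.26 without the cells rich in other markers. *Jchain*, an antibody chain of plasma cells, was at 7373 CPM in WT IL1β mouse 4 against 64.4 to 124 in the rest of its group. *Retnlg*, a neutrophil gene, rose by 4.46 ± 1.19 in WT and was too low to be tested once those cells were left out. Of 16 granulocyte genes, 1 rose in each genotype, against 1.76% of all genes in WT and 4.13% in *Tet2*-KO. This was *Ms4a3*, which marks granulocyte and monocyte progenitors, and the list's median was 1.18 in WT and -0.15 in *Tet2*-KO.

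Immediate early genes differed between libraries. The list of stress genes, which the study named on these samples, ranged over 41.2 to 47.1 UMIs per 10000 for WT vehicle mice 1 and 2 and over 19.1 to 34.2 for mice 3 and 4. In WT IL1β mice the ranges were 47.1 to 105.5 and 34.1 to 39.6. *Tet2*-KO mice given vehicle had 65.9 to 115.9 and 29.9 to 43.7, and those given IL1β had 119.1 to 120.7 and 49.1 to 55.3. In each of the 4 groups the library of mice 1 and 2 was therefore above that of mice 3 and 4. Of the 15 stress genes, 3 rose in WT and 2 in *Tet2*-KO with IL1β, where 1.76% and 4.13% of all genes rose. With IL1β, the summed list of *Tet2*-KO mice was above that of the WT mice of the same numbers in both ranges. With vehicle its ranges in mice 3 and 4 overlapped. Single members did not all follow the sum. With IL1β, *Jun* was higher in *Tet2*-KO than in WT mice in both ranges. *Egr1* and *Fosb* were higher in mice 1 and 2, while their ranges in mice 3 and 4 overlapped those of WT. *Fos* overlapped WT in both ranges. When libraries of the same mouse numbers were blocked together across groups, 5 of the 15 stress genes rose in WT. In *Tet2*-KO 4 rose and 1 fell. Of all 7632 genes that fit called 152 higher in WT, and 348 higher and 511 lower in *Tet2*-KO. The 1 that fell was thus near the share over all genes. The labels do not state that such libraries belong together. What set the libraries apart was not tested.

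*Tet2*-KO and WT gated cells were then compared directly. With vehicle, edgeR called 0 of 7632 genes (0.0%), with 297 at an unadjusted p under 0.05, and DESeq2 also called 0. The mice of both genotypes did not overlap for 2.66% of the genes. With IL1β, 1 gene differed (0.0131%), with 472 at an unadjusted p under 0.05, and DESeq2 called 1. The response to IL1β itself differed between genotypes for 0 genes (0.0%), with 322 at an unadjusted p under 0.05, and DESeq2 called 0. With no filter on low counts these 3 counts were 54, 51 and 29, and with cells thinned to 2000 UMIs the count between genotypes with IL1β was 21. The number of calls alone does not compare the responses, and 96.3% of the *Tet2*-KO calls had the same sign in WT.

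The gene that differed with IL1β was *Gimap6* (chromosome 6, 48701582 to 48708225), a GTPase of the immunity-associated family. It was at 77.4, 64.4, 93.7 and 87.2 CPM in WT IL1β mice and at 288, 147, 200 and 155 CPM in *Tet2*-KO IL1β mice, which did not overlap, as for 3.97% of all genes tested. With vehicle it was at 100, 59.5, 127 and 119 CPM in WT and at 123, 134, 122 and 113 CPM in *Tet2*-KO. The difference with IL1β was 1.14 ± 0.20 on the log2 scale (adjusted p = 0.044 by edgeR), and it was past the threshold in 11 of 28 alternatives. Leaving out any 1 of 13 of the 16 mice, WT IL1β mouse 3 among them, ended the call, with a difference of 1.26 without that mouse. Without the cells rich in other markers it was 0.98 (adjusted p = 0.11 by edgeR). Of the HSC genes outside the gate, 23 of 24 had a positive *Tet2*-KO minus WT value with IL1β and 15 of 24 with vehicle, and 0 were called. Other lists lay to 1 side as far with 0 called. Of 27 G2M genes, 0 were positive with IL1β (median -0.50) and 0 with vehicle (median -0.35). Of 9 monocyte genes 0 were positive with IL1β, and of 12 erythroid genes 1 was. These sign counts include the cells rich in markers of other lineages. Such cells were 12.88% of the gate in WT IL1β and 6.02% in *Tet2*-KO IL1β. Of the 21 self-renewal factors, 21 were positive with IL1β (median 0.31) and 9 with vehicle. Of the 15 stress genes, 13 were positive with IL1β (median 0.50) and 14 with vehicle (median 0.92). The study named the stress genes and some of the self-renewal factors on these samples, so their direction is not independent evidence.

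Gated cells were last compared with *Flt3*+ *Cd34*+ cells outside the gate, which met the same limits on *Mpo*, *Pf4*, *Car1* and *Dntt*. There were 1016 of these, 6 to 81 per mouse among those assigned, and the pairs came from the same mice. Of 5269 genes tested outside both rules, 1329 differed (25.2%), 659 higher in gated cells (12.5%) and 670 lower (12.7%). With the RLE scaling the split was 854 higher and 559 lower. Both sets of cells were chosen by measured genes, so these differences describe the 2 gates.

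HSC genes were higher in the gated cells, 18 of 19 tested, with a median log2 difference of 1.27 against 0.021 over all genes. Genes that were higher in all 16 mice included *Pdzk1ip1* (2.78 ± 0.22), *Fnbp1l* (2.41 ± 0.25), the lipid carrier *Apoe* (2.10 ± 0.14) and *Slc18a2*, a transporter of monoamines (1.94 ± 0.16). Monocyte genes were lower, 10 of 11 tested, with *Irf8* at -3.72 ± 0.12 and *Csf1r*, the M-CSF receptor, at -2.56 ± 0.26. Of 29 S phase genes, 12 were lower in the gated cells and 0 higher. Of 27 G2M genes, 3 were lower and 0 higher (median -0.119), near the share over all genes. The summed G2M level was above that of the *Flt3*+ *Cd34*+ cells in 8 of 16 mice. Granulocyte genes were higher for 9 of 14 tested and lower for 2. Their summed level was above that of the *Flt3*+ *Cd34*+ cells in 11 of 16 mice. Without the cells rich in other markers 1 of 7 was higher. Erythroid genes were higher for 7 of 8 tested (median 1.90), with the list's summed level above that of the *Flt3*+ *Cd34*+ cells in 16 of 16 mice, and for 3 of 4 tested without the cells rich in other markers (median 0.55).

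**Figure D5:**
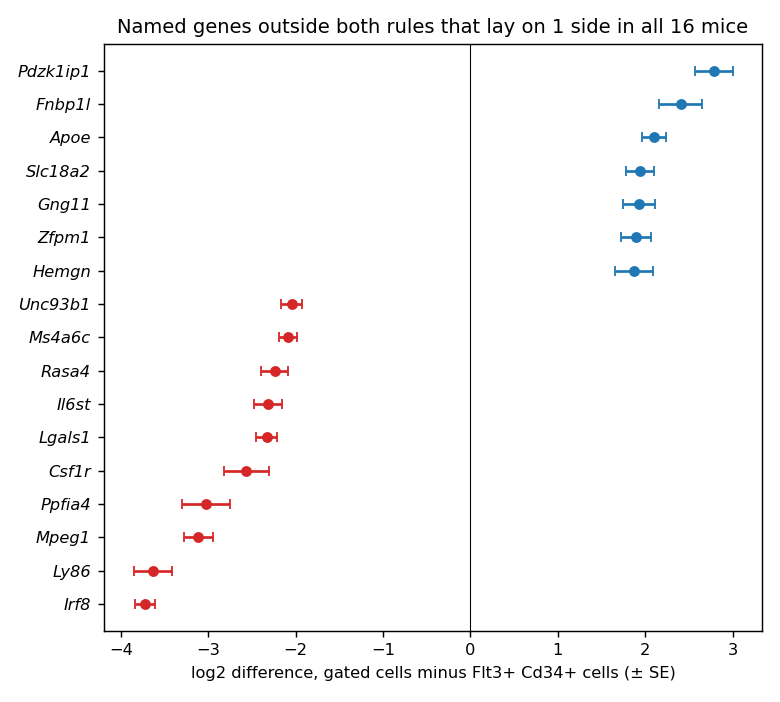
Log2 difference of gated cells minus *Flt3*+ *Cd34*+ cells, ± SE, for named genes outside both rules that lay on 1 side in all 16 mice. *Pdzk1ip1* is highest at 2.78 and *Irf8* lowest at -3.72.

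The IL1β response of gated cells differed from that of *Flt3*+ *Cd34*+ cells for 0 genes in WT (0.0%), by edgeR, where 263 had an unadjusted p below 0.05. In *Tet2*-KO it differed for 14 (0.266%), 4 with a higher value in gated cells (0.0759%) and 10 with a lower one (0.19%). *Cd69* had a response 1.22 higher on the log2 scale in gated cells, and *Irf8* one 1.55 lower. The count was 0 without *Tet2*-KO vehicle mouse 2, 2 without mouse 3, and 8, 0 and 7 without *Tet2*-KO IL1β mice 2, 3 and 4. Without the cells rich in other markers it was 50, 38 with a higher value and 12 with a lower one, and with 3 or more markers 17 were higher and 7 lower, so the balance of directions turned round.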

How the data were processed

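Lineage-negative bone marrow of 16 mice was profiled by droplet single-cell RNA sequencing in 8 libraries of 2 hashtagged mice each. The deposited files hold raw UMI counts per gene and barcode, which the authors made with Cell Ranger 3.1.0 on mm10, with no normalization. The submitters' notes also name Seurat 3.2.3. Hashtag counts were classified with HTODemux (Seurat 5.3.0), and cells with both or neither hashtag were left out of values per mouse. No other doublet caller was run. Depth was 51129 to 1064501 UMIs per mouse.

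UMIs of gated cells were summed per mouse, genes were kept by filterByExpr (minimum count 10) and tested with edgeR 4.0.16 (TMM scaling, quasi-likelihood, 1 fit over the 4 groups, adjusted p under 0.05). CPM are TMM-scaled. The comparison with *Flt3*+ *Cd34*+ cells kept the mouse as a block. DESeq2 1.42.0 (R 4.3.3) as an alternative, Python 3.11.15, numpy 2.4.6, pandas 2.3.3, scipy 1.17.1 and matplotlib 3.10.9 were also used. The scripts were tested on simulated data. P-values measure the spread between mice taken as independent, although the mice of a group shared 2 libraries. Deviations of mice from their group mean correlated on average at 0.002 within and -0.493 between libraries in *Tet2*-KO vehicle. The values were -0.1 and -0.427 in *Tet2*-KO IL1β, -0.157 and -0.295 in WT vehicle, and -0.311 and -0.315 in WT IL1β. Since each mean holds the same 4 mice, even independent mice would correlate below 0 here. A value near 0 within libraries is therefore not a sign that mice of 1 library were independent. In *Tet2*-KO the libraries of a group also differed in sex. Named genes had the largest changes among called genes with a mean of at least 50 CPM (20 between genotypes) whose mice did not overlap, up to 12 a direction for changes shared by both genotypes, 6 for each group comparison and 10 against *Flt3*+ *Cd34*+ cells. Up to 4 genes with the smallest p were named for differences in response and for each list. Genes whose mean in gated cells was under 0.25 of that in the other cells were passed over, since free RNA could set their level. The members and the 28 gene lists were chosen with earlier results of these data known. Some genes that this rule names are not reported here.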

Additional observations from a re-analysis of the deposited data

Results flagged for a closer look

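Among 140 groups of 4 mice looked at, 11 held a mouse far from the other 3, where chance gives about 1 in 20. In WT vehicle these were mouse 1 for *Cxcl2* (21.1 CPM), *Ifi27* (158.2 CPM) and *Junb* (290.0 CPM), and mouse 2, with 16 gated cells, for *Lgals3* (238.0 CPM). In WT IL1β they were mouse 1 for *Wfdc17* (68.0 CPM), mouse 3 for *AY036118* (42.3 CPM), and mouse 4 for *Fam69b* (29.1 CPM) and *Irf8* (96.9 CPM). In *Tet2*-KO vehicle it was mouse 1 for *Eif6* (78.9 CPM). In *Tet2*-KO IL1β they were mouse 1 for *Nudc* (82.1 CPM) and mouse 2 for *Dctpp1* (97.3 CPM).

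In *Tet2*-KO mice the response to IL1β differed between gated and *Flt3*+ *Cd34*+ cells by the edgeR test of that difference. Gated minus *Flt3*+ *Cd34*+ cells was positive on the log2 scale for the mitotic genes *Ube2c* (1.37), *Ccnb1* (2.19) and *Cenpf* (1.25) and for *Cd69* (1.22). It was negative for *Psap* (-1.26), *Irf8* (-1.55), *Ifitm3* (-0.94) and *Sub1* (-0.72). These calls were lost in 5 (*Ube2c*) to 10 (*Sub1*) of the 21 or 22 alternatives run for each. Over those the value ran from 0.531 to 2.511 for *Ube2c*, from -1.45 to -0.133 for *Psap* and from -1.106 to -0.186 for *Ifitm3*.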

How the results depend on the processing

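Counts of genes called are given for IL1β in WT and in *Tet2*-KO (353 and 792), *Tet2*-KO against WT with vehicle and with IL1β (0 and 1), the genotype difference in response (0), gated against *Flt3*+ *Cd34*+ cells (1329) and the difference in response from those cells in WT and *Tet2*-KO (0 and 14). DESeq2 called 522 for IL1β in *Tet2*-KO. RLE scaling called 2 for the difference in response in WT. With no filter on low counts the calls were 54 and 51 for genotype, 29 for the genotype difference in response, and 12 and 31 for the difference from *Flt3*+ *Cd34*+ cells. With at least 3 markers (13 mice) they were 16 and 268 for IL1β, 6 and 0 for genotype, 1 for the difference in response, and 2 and 24. Thinned to 4000 UMIs (14 mice) they were 37 and 264 for IL1β, 0 for genotype with IL1β, 461 between cell sets, and 1 and 0. Thinned to 2000 UMIs, chosen after seeing the data, they were 135 and 282, 21 for genotype with IL1β, 442, and 2 and 0. Without cells of other lineages, also chosen after seeing the data, they were 1 and 0 for genotype, and 8 and 50. With pools as replicates they were 93 and 464 for IL1β and 1 and 6 for genotype. Sex as a covariate gave 2 and the hashtag ratio rule 0 for genotype with IL1β. With the mouse number as a replicate block the counts were 272 and 748 for IL1β and 1 and 2 for genotype, and the numbers were not taken as pairs, since the correlations of same-numbered mice ran from -0.224 to 0.301 and not all passed 0.1. Leaving out each mouse gave 94 to 392 and 424 to 913 for IL1β, 0 for genotype with vehicle, 0 to 1 with IL1β, 0 for the genotype difference, 1156 to 1406 between cell sets, and 0 to 2 and 0 to 20.

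The difference in gated share changed sign for *Tet2*-KO against WT with vehicle when cells were thinned to 4000 UMIs (-0.207 percentage points), with at least 3 markers (-0.208) and with the hashtag ratio rule (-0.155), and leaving out single mice gave -0.338 to 1.189, with -0.11 without WT vehicle mouse 2. For IL1β in *Tet2*-KO leaving out single mice gave -0.732 to 0.639, with -0.024 and -0.177 among them. The cause was not tested. The same difference, 0.044 in the main setting, was 0.774 thinned to 4000 UMIs, 0.87 with the hashtag ratio rule and 0.442 with at least 3 markers. Each of these gave an exact permutation p = 0.2. In *Tet2*-KO against WT with IL1β single mice gave 0.786 to 2.157, and in WT IL1β against vehicle -1.855 to -0.329. Of the 86 gene results named by size or by a difference in response, 0 changed direction in the alternatives run, and genes named from lists only were not followed there. Many lost the call, 38 of 86 with at least 3 markers, 31 of 73 thinned to 4000 UMIs and 24 of 76 thinned to 2000 UMIs. The planned strict lineage filter left too few cells and could not be fitted. Mice with 16 to 41 gated cells limit what a low gene can show.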

Other observations

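Counts of the remaining gene lists are set against the genes called over all those tested, 1.76% higher and 2.87% lower with IL1β in WT, and 4.13% higher and 6.25% lower in *Tet2*-KO. *Psmb8*, a subunit of the immunoproteasome that trims peptides for MHC class I, was at 443, 298, 292 and 355 CPM in WT vehicle mice and at 192, 175, 178 and 281 CPM in WT IL1β mice. The *Tet2*-KO mice had 293, 388, 444 and 438 CPM with vehicle and 164, 190, 192 and 210 CPM with IL1β. *Psmb8* fell by 0.80 in WT and by 1.03 in *Tet2*-KO on the log2 scale (adjusted p = 0.013 and 0.00078, edgeR), with no overlap between vehicle and IL1β. Of 15 MHC class I genes, 3 fell in WT and 2 in *Tet2*-KO, the latter not far from the share over all genes. Of 6 MHC class II genes, 2 fell in WT and 1 in *Tet2*-KO.

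*Itga2b*, the integrin CD41 of megakaryocytes and of some stem cells, was at 79.1 to 94.8 CPM in WT vehicle mice and 110 to 184 CPM in WT IL1β mice, and rose by 0.69 ± 0.18 in WT and 0.77 ± 0.16 in *Tet2*-KO. Of 12 Bcl2 family genes, 2 rose in WT, *Mcl1* (1.04 ± 0.25) and *Pmaip1* (4.50 ± 0.77, with vehicle mice at 0 to 1.7 CPM), while 1 rose and 1 fell in *Tet2*-KO. *Bax*, a pore-forming member that promotes cell death, fell by 0.86 in *Tet2*-KO. Of 20 homing and adhesion genes, 2 rose in WT, among them the integrin *Itgal* (1.14 ± 0.30), and *Cxcr4*, the receptor that retains stem cells in the marrow, rose by 0.82 ± 0.20 in *Tet2*-KO. Of 18 glycolysis genes, 2 fell in each genotype, among them *Gapdh* in both. Of 17 heat shock genes 0 changed in WT and 4 fell in *Tet2*-KO, and of 21 interferon response genes 0 changed in WT and 1 fell in *Tet2*-KO, which was *Bst2* and is below the share over all genes. Of 13 enzymes of DNA methylation, including *Tet2*, 0 changed in either genotype at the adjusted threshold of edgeR. Of 21 cytokine receptors and feedback genes, 1 rose and 1 fell in WT and 1 rose in *Tet2*-KO, and the gene that rose in both was *Pim1*, a survival kinase. Of 12 erythroid genes, 0 changed in WT and 2 fell in *Tet2*-KO. All 12 stromal and endothelial genes were too low to be tested.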
